A study of Mus musculus with 18 samples.

Results

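Purinergic signalling was described here through 10 genes that encode receptors for extracellular nucleotides and adenosine and the surface enzymes that convert one into the other: P2ry12, P2ry13, P2ry6, P2ry14, P2rx4, P2rx7, Entpd1, Nt5e, Adora2a and Adora3. They were chosen by name, as the rows of the deposited matrix that carry these symbols, and make up 10 of its 36172 genes. The choice was made with earlier results of these data known. Counts of called genes set beside the shares of all genes are therefore descriptive. RNA came from brains of Cx3cr1-cre/ERT2+; NuTRAP+ mice, which had received tamoxifen at about 3 months of age. Tamoxifen turns on a ribosomal protein fused to EGFP wherever the Cx3cr1 promoter is used. Such cells in the brain are mainly microglia, but they also include macrophages at the brain borders and cells of the monocyte lineage. Circulating monocytes are renewed quickly, and the study waited after tamoxifen so that they would not carry the tag. At 3 to 4 weeks after tamoxifen, the mice were given 5 mg/kg LPS, the endotoxin of Gram-negative bacteria, or PBS by intraperitoneal injection, and tissue was collected 24 h later. From the lysate of one hemisphere of each mouse, part was kept as input and tagged ribosomes were pulled down with an antibody against GFP to give the positive fraction (translating ribosome affinity purification, TRAP). Both treatment groups carried both transgenes and had received tamoxifen, and each library was made from 1 animal. The 4 groups used here were Positive LPS (n = 5), Positive PBS (n = 4), Input LPS (n = 4) and Input PBS (n = 4), and animals are named by their number in the labels.

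Cells that are active or damaged release ATP, ADP and UDP. P2Y receptors are G protein-coupled and P2X receptors are ATP-gated ion channels. At the cell surface, CD39 (Entpd1) cleaves ATP and ADP to AMP and CD73 (Nt5e) cleaves AMP to adenosine, which acts on adenosine receptors. In microglia of the healthy brain, P2Y12 guides process extension towards ADP, whereas P2Y6 is a UDP receptor linked to phagocytosis.

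The 17 libraries held from 22968939 to 35123345 estimated counts. A further library, the input of animal 271 (LPS), held 1252 counts and none for any of the 10 genes, and was left out. All 7 microglial markers, among them Cx3cr1 and Tmem119, were higher in the positive fraction than in input under both treatments. The positive fraction was not free of other RNA. In normalised counts, which are counts divided by the size factor of their library, the summed level of 4 neuronal markers was between 111400 and 139100 in Positive PBS and between 125300 and 135200 in Input PBS, and none of these 4 markers was called between fractions. Under LPS the summed level of 6 neutrophil markers ran from 316 to 939 in the positive fraction, against 23.9 to 137 under PBS. In input the same sum ran from 444 to 1229 under LPS and from 133 to 388 under PBS. S100a8 had the largest mean of these markers in Positive LPS, at 416 normalised counts, followed by Ngp at 85.7. Of the 6, Ly6g was at 0 in all 17 libraries. The summed level of 5 border macrophage markers ran from 2247 to 3258 under LPS and from 2979 to 6515 under PBS. All 4 endothelial markers were higher in the positive fraction than in input in PBS animals, from 2.72-fold (Tek) to 3.31-fold (Pecam1). Under LPS, Flt1 (log2 fold change -1.29) and Tek (-1.86) were called lower in the positive fraction. Cldn5 was called higher there (0.51), and Pecam1 was not called. What part these cells have in the values below was not tested.

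LPS was followed by opposite changes within this gene set in the positive fraction. The ADP receptors P2ry12 and P2ry13 and the ectonucleotidase Entpd1 fell by between 3.45-fold and 5.54-fold, and the UDP receptor P2ry6, the ATP-gated channel P2rx4 and the adenosine receptor Adora3 rose by between 1.83-fold and 2.02-fold. By edgeR's quasi-likelihood test (adjusted p under 0.05 and a log2 fold change over 0.322 in size), 4 of the 10 genes were higher and 5 were lower under LPS, and P2ry14 was not called. Of all 14804 genes tested, 19.0% were called higher and 14.9% lower. All 10 genes were among those tested. Their median log2 fold change was -0.46, and that of all genes tested was 0.01. The libraries of the groups did not overlap for 3 genes that were higher and 3 that were lower, a separation seen in 30.1% of all genes tested. In these bulk libraries, fewer cells of a type and less RNA per cell cannot be told apart. The 7 microglial markers summed to between 174900 and 213900 normalised counts in Positive PBS and between 152300 and 210600 in Positive LPS, and among them C1qa and Itgam rose and Tmem119 fell.

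**Figure D1:**
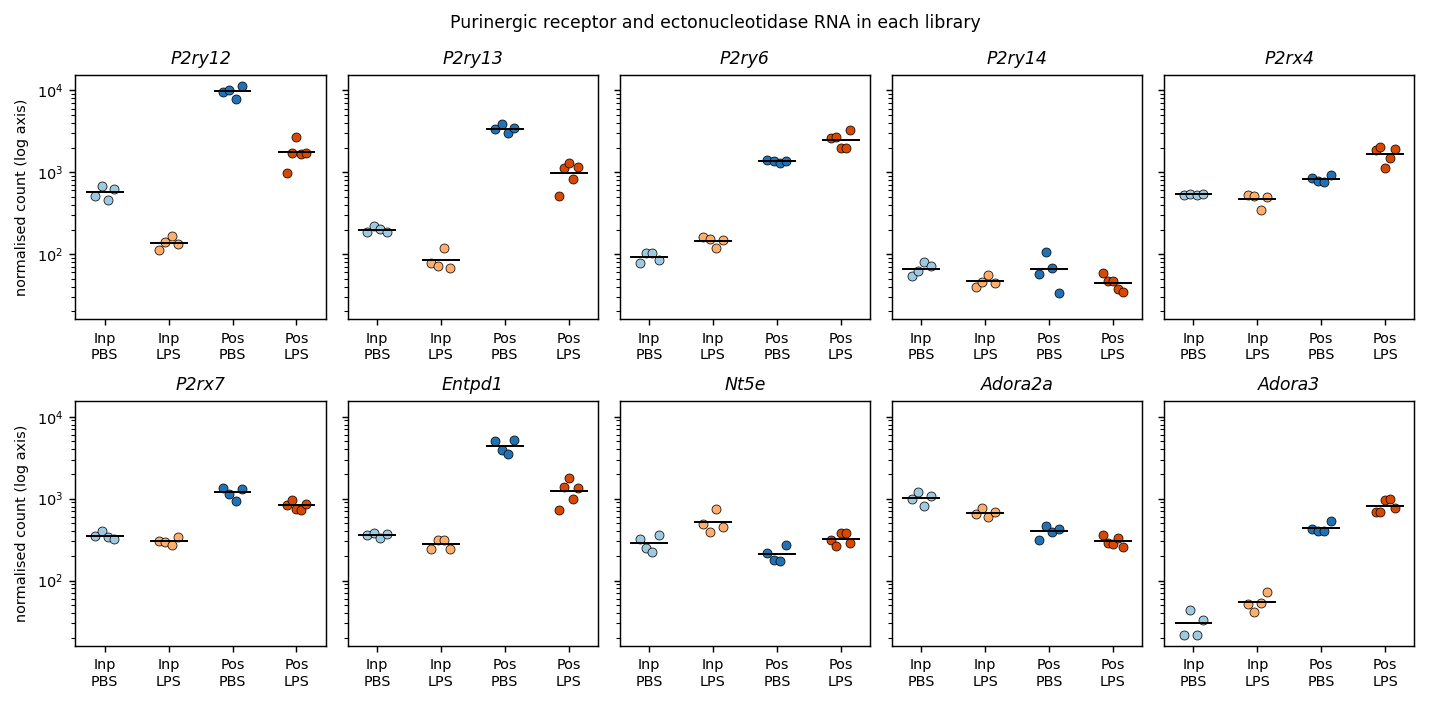
Normalised count (log axis) of each of the 10 genes in each of the 17 libraries. Points are libraries, bars are group means, and Inp and Pos stand for input and positive fraction. P2ry12 in the positive fraction lies between 7894 and 11430 under PBS and between 977 and 2719 under LPS, whereas P2ry6 lies between 1315 and 1407 under PBS and between 1955 and 3266 under LPS.

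P2ry12, the ADP receptor that marks homeostatic microglia, had 7894, 9696, 10050 and 11430 normalised counts in the Positive PBS libraries and 977, 1653, 1716, 1744 and 2719 in the Positive LPS libraries. The groups were far apart, and the LPS library nearest to PBS was that of animal 270. The log2 fold change was -2.47 (SE 0.20, adjusted p = 4.11e-08). Input showed the same direction, with 463, 519, 629 and 682 normalised counts under PBS and 112, 133, 142 and 168 under LPS. The input groups did not overlap either, and the log2 fold change there was -2.04 (SE 0.23, adjusted p = 8.14e-06).

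P2ry13 encodes a further ADP receptor and lies beside P2ry12. Its normalised counts were 2983, 3337, 3473 and 3853 in Positive PBS and 517, 831, 1118, 1168 and 1307 in Positive LPS (log2 fold change -1.79, SE 0.20, adjusted p = 1.27e-06). In input they were 187, 188, 201 and 221 under PBS and 68.2, 72.8, 78.0 and 119 under LPS (log2 fold change -1.24, SE 0.24, adjusted p = 0.00147). Neither pair of groups overlapped, and animal 270 again had the highest LPS value in both fractions.

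P2ry14, the receptor for UDP-glucose, was close to the lower limit of this set. It had 33.2, 56.8, 68.1 and 108 normalised counts in Positive PBS and 34.3, 37.7, 46.7, 47.4 and 59.0 in Positive LPS. The groups overlapped and the gene was not called (log2 fold change -0.58, SE 0.27, adjusted p = 0.0929), but without the positive library of PBS animal 506, the lowest of its group, it was called lower (log2 fold change -0.79, adjusted p = 0.0157). Input held 53.9 to 80.0 normalised counts under PBS and 40.3 to 55.2 under LPS, and P2ry14 was not called there (log2 fold change -0.52, SE 0.28, adjusted p = 0.232).

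P2ry6, the UDP receptor, moved the other way from its ADP relatives. Its normalised counts were 1315, 1362, 1363 and 1407 in Positive PBS, a narrow spread, and 1955, 1985, 2613, 2675 and 3266 in Positive LPS. Every LPS library was above every PBS library (log2 fold change 0.88, SE 0.13, adjusted p = 5.11e-05). In input it had 77.7, 85.0, 104 and 105 normalised counts under PBS and 120, 151, 155 and 162 under LPS, without overlap. The log2 fold change in input was 0.66 (SE 0.16, adjusted p = 0.00941), and with the animal as a block it was 0.59 and no longer called (adjusted p = 0.161).

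Of the nucleotide-gated channels, P2rx4 rose in the positive fraction. It had 756, 784, 859 and 927 normalised counts in Positive PBS and 1136, 1512, 1854, 1905 and 2011 in Positive LPS, with no overlap, and the log2 fold change was 1.02 (SE 0.15, adjusted p = 2.96e-05). The lowest LPS value was that of animal 270. In input P2rx4 had 528 to 550 normalised counts under PBS and 352, 499, 520 and 531 under LPS. Those groups overlapped and no change was called (log2 fold change -0.18, SE 0.16, adjusted p = 0.484).

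P2rx7, the channel that needs high ATP and is linked to release of interleukin-1 beta, had 943, 1154, 1316 and 1357 normalised counts in Positive PBS and 719, 757, 829, 869 and 957 in Positive LPS. It was called lower although the highest LPS library was just above the lowest PBS library (log2 fold change -0.53, SE 0.12, adjusted p = 0.00148). Input held 326 to 406 normalised counts under PBS and 272 to 344 under LPS, and P2rx7 was not called there (log2 fold change -0.22, SE 0.13, adjusted p = 0.271). P2rx7 and P2rx4 lie next to each other on chromosome 5, on the same strand, and changed in opposite directions in the positive fraction.

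Entpd1, the enzyme that removes ATP and ADP, had 3469, 3918, 5106 and 5153 normalised counts in Positive PBS and 730, 1001, 1332, 1392 and 1797 in Positive LPS. The groups were well apart (log2 fold change -1.82, SE 0.19, adjusted p = 6.51e-07). In input the values were 334, 358, 374 and 381 under PBS and 239, 245, 311 and 313 under LPS. The input groups also did not overlap, but the gene was not called (log2 fold change -0.39, SE 0.21, adjusted p = 0.245).

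Nt5e, the enzyme that makes adenosine from AMP, had 173, 177, 217 and 275 normalised counts in Positive PBS and 263, 285, 313, 378 and 380 in Positive LPS. The ranges touched, and the gene was called higher (log2 fold change 0.62, SE 0.20, adjusted p = 0.0193). The call was lost without the positive library of PBS animal 272 (adjusted p = 0.0664) or 273 (adjusted p = 0.0641). Input levels were higher than those of the positive fraction, at 224, 252, 324 and 358 normalised counts under PBS and 392, 448, 494 and 740 under LPS. There the groups were apart, with animal 270 far above the other LPS animals (log2 fold change 0.84, SE 0.21, adjusted p = 0.00955).

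Adora2a, the adenosine receptor abundant in striatal neurons of the indirect pathway, had 315, 388, 425 and 464 normalised counts in Positive PBS and 259, 278, 290, 333 and 362 in Positive LPS. The groups overlapped. It was called lower (log2 fold change -0.39, SE 0.14, adjusted p = 0.0337), but not with the animal as a block (log2 fold change -0.39, adjusted p = 0.0733). Nor was it called with sex as a covariate (log2 fold change -0.36, adjusted p = 0.0554). The call was also lost when any one of the PBS libraries 272, 273 and 506 or the LPS libraries 267, 270 and 507 was left out, with adjusted p-values between 0.0535 and 0.126. In input the gene had 812, 997, 1075 and 1207 normalised counts under PBS and 589, 644, 684 and 772 under LPS, without overlap (log2 fold change -0.60, SE 0.14, adjusted p = 0.00764). Without animals 506 and 507 the input call was lost (log2 fold change -0.59, adjusted p = 0.0651). None of 5 markers of striatal neurons (Drd2, Gpr6, Penk, Ppp1r1b and Rgs9) was called for LPS in input. In the positive fraction 1 of the 5 was called, Drd2, a dopamine receptor gene (log2 fold change -0.41, SE 0.14, adjusted p = 0.0304).

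Adora3, the adenosine receptor found among immune cells, had 403, 407, 422 and 528 normalised counts in Positive PBS and 683, 685, 777, 960 and 990 in Positive LPS. Every LPS library was above every PBS library (log2 fold change 0.90, SE 0.18, adjusted p = 0.000549). In input it had 21.9, 21.9, 33.4 and 43.5 normalised counts under PBS and 41.5, 51.7, 52.7 and 72.0 under LPS, and the groups touched (log2 fold change 0.86, SE 0.23, adjusted p = 0.0174). That input call was lost with the animal as a block (log2 fold change 0.98, adjusted p = 0.0645), and it was lost when PBS animal 268 or 273, or LPS animal 507, was left out (adjusted p between 0.0622 and 0.0688). The gene model in the file also spans Tmigd3 on the same strand, so these counts may belong to both genes.

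In input as a whole, 3 of the 10 genes were called higher under LPS (P2ry6, Nt5e and Adora3) and 3 lower (P2ry12, P2ry13 and Adora2a), where 7.16% of all genes tested were called higher and 5.26% lower. Scaled on the microglia list (described with the enrichment values), the split in input was 0 higher and 7 lower: P2ry6 (adjusted p = 0.0896), Nt5e (adjusted p = 0.103) and Adora3 (adjusted p = 0.107) were no longer called, and P2ry14, P2rx4, P2rx7 and Entpd1 were called lower. The median log2 fold change of the 10 genes was -0.30 and that of all genes tested was 0.00. The input groups did not overlap for 2 genes that were higher and 4 that were lower, against 24.1% of all genes tested.

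**Figure D2:**
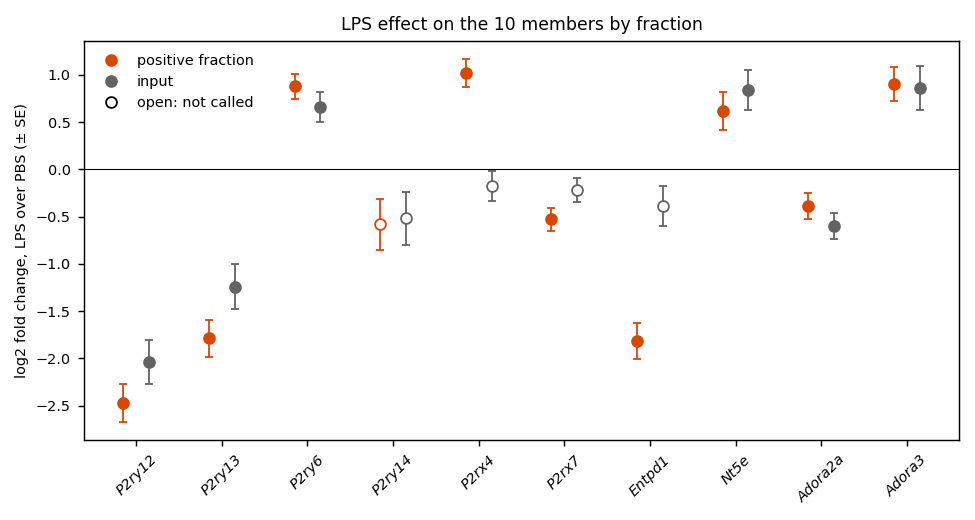
Log2 fold change of LPS over PBS (y axis) for each of the 10 genes, with error bars of 1 SE, by fraction. Open points were not called. P2ry12 is lowest in both fractions, at -2.47 and -2.04, and P2rx4 is at -0.18 in input and 1.02 in the positive fraction.

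The LPS effect was then compared between fractions by the interaction term. It was called different for 2 genes, 1 in each direction, where 5.46% of all genes tested were called higher in the positive fraction than in input and 1.42% lower. For P2rx4 the log2 effect in the positive fraction exceeded that in input by 1.20 (SE 0.21, adjusted p = 0.00199). For Entpd1 the difference was -1.43 (SE 0.28, adjusted p = 0.00409), and without animals 506 and 507 it was -1.44 and just missed the threshold (adjusted p = 0.0505). P2ry12 (difference -0.43, SE 0.30, adjusted p = 0.493) and P2ry13 (-0.55, SE 0.31, adjusted p = 0.352) were not called, so the larger fall in the positive fraction was not distinguished from that in input.

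Enrichment by TRAP divided the 10 genes into 3 sets. In PBS animals 7 of the 10 were higher in the positive fraction than in input and 1 was lower, with 21.0% of all genes tested called higher and 18.8% lower. P2ry12 was 17.1-fold and P2ry13 17.1-fold higher, P2ry6 14.7-fold, Adora3 14.6-fold and Entpd1 12.2-fold. P2rx7 at 3.37-fold and P2rx4 at 1.54-fold formed a less enriched pair. Adora2a was 2.57-fold lower in the positive fraction (log2 fold change -1.36, SE 0.15, adjusted p = 5.25e-07), and Nt5e (log2 fold change -0.46, SE 0.21, adjusted p = 0.0803) and P2ry14 (0.00, SE 0.27, adjusted p = 0.996) were not called. With the animal as a block, Nt5e was called lower (log2 fold change -0.46, adjusted p = 0.00152), and it was lower in the positive fraction in 4 of 4 PBS animals. Without the block it was also called lower when Input PBS 273 (adjusted p = 0.0471), Input LPS 270 (adjusted p = 0.0457) or Positive PBS 506 (adjusted p = 0.0335) was left out.

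In LPS animals 7 genes were higher in the positive fraction and 2 lower, Adora2a and Nt5e, where 27.6% of all genes tested were called higher and 25.8% lower. P2ry6 led, with a log2 fold change of 4.09, followed by Adora3 at 14.9-fold, P2ry12 at 12.7-fold and P2ry13 at 11.7-fold. Entpd1 was 4.52-fold and P2rx4 3.54-fold higher. Paired by animal, the log2 ratio of positive to input for P2rx4 was 0.50, 0.51, 0.70 and 0.77 under PBS and 1.69, 1.80, 1.93 and 1.95 under LPS. For Entpd1 it was 3.36, 3.37, 3.78 and 3.83 under PBS and 1.61, 2.16, 2.44 and 2.52 under LPS. Neither gene's groups overlapped. In contrast, the log2 ratio for P2ry6 ranged from 3.64 to 4.16 under PBS and from 4.00 to 4.43 under LPS, which overlapped.

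These fold changes are relative to the median gene. Scaled instead on 235 genes of the study's microglia list, with the 10 genes left out, the median of all genes moved to -3.10 for positive over input in PBS animals and to -3.01 in LPS animals. Against that yardstick P2rx4 (-2.48 in PBS and -1.15 in LPS animals) and P2rx7 (-1.35 and -1.54) reversed sign, as did Entpd1 in LPS animals (-0.83). They were therefore less enriched than the list, though above the median of all genes by 0.62 and 1.86 for P2rx4, 1.75 and 1.47 for P2rx7, and 2.18 for Entpd1. P2ry12 (0.99), P2ry13 (1.00), P2ry6 (0.78) and Adora3 (0.78) in PBS animals were more enriched than the list. Under this scaling 5 of the 10 genes were called higher and 5 lower for positive over input in PBS animals, and 4 higher and 6 lower in LPS animals. The same scaling moved the median of all genes to -0.20 for LPS in the positive fraction and to -0.33 in input. No LPS effect on the 10 genes changed direction under it, but calls did. In the positive fraction the split became 3 higher and 6 lower, as Nt5e lost its call (log2 fold change 0.44, adjusted p = 0.184) and P2ry14 was called lower (-0.79, adjusted p = 0.0477). Among the genes newly called lower in input was P2rx4 (log2 fold change -0.54, adjusted p = 0.00397), which stood at -0.21 relative to the median of all genes there. P2ry12 stood at -2.47 in the positive fraction and -2.02 in input relative to those medians.

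**Figure D3:**
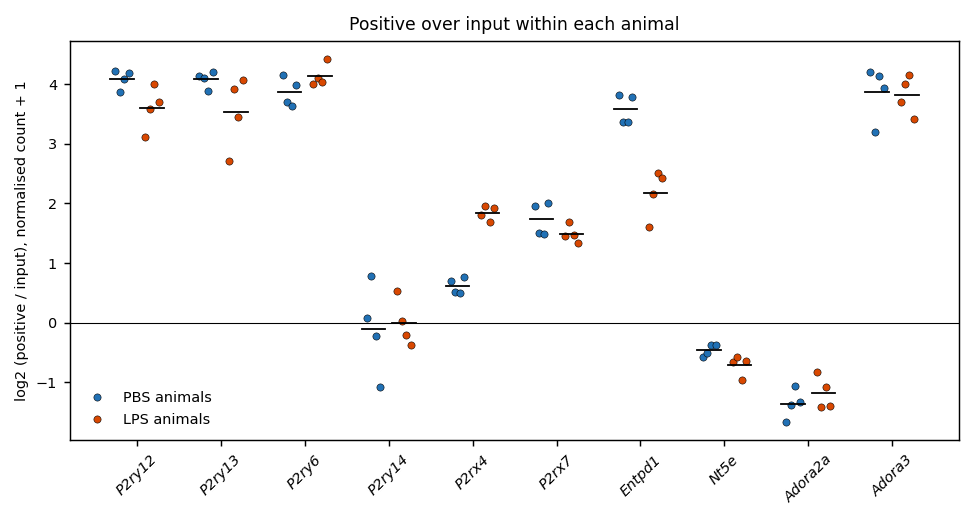
Log2 ratio of positive to input (normalised counts + 1, y axis) within each of 4 PBS and 4 LPS animals, for each of the 10 genes. Points are animals and bars are means. P2rx4 lies between 0.50 and 0.77 under PBS and between 1.69 and 1.95 under LPS, and Entpd1 between 3.36 and 3.83 under PBS and between 1.61 and 2.52 under LPS.

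To compare levels between genes, normalised counts were divided by the kilobases of annotated exon. For Adora3 the exons of Tmigd3 were included in the length (5.246 kb), as the gene model in the file spans both. The per-kb level, rank and share of Adora3 depend on that choice. In Positive PBS, P2ry12 was the most abundant of the 10, at 3836 ± 572 per kb (SD, n = 4), followed by P2ry13 at 1349 ± 142, Entpd1 at 791 ± 152, P2ry6 at 472 ± 13.1 and P2rx7 at 200 ± 31.5. Then came Adora2a at 130 ± 20.8, P2rx4 at 118 ± 11.0, Adora3 at 83.8 ± 11.3, Nt5e at 24.5 ± 5.51 and P2ry14 at 6.01 ± 2.82. Of neighbours in this order, Adora2a and P2rx4 overlapped across libraries and the others did not.

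Under LPS the order in the positive fraction was less distinct. P2ry6 stood first at 866 ± 189 per kb (SD, n = 5), but overlapped with P2ry12 at 692 ± 244, and each following pair overlapped down to P2rx7 at 138 ± 15.7. P2rx4 was at 240 ± 51.0 per kb, next to Entpd1 at 224 ± 72.8. Input had another order, led by Adora2a at 334 ± 53.9 per kb under PBS (n = 4) and 220 ± 25.1 under LPS (n = 4).

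As a share of the summed per-kb level of the 10 genes, P2ry12 made up 54.6% ± 1.73 (SD, n = 4) in Positive PBS and 23.9% ± 6.22 (n = 5) in Positive LPS. P2ry6 went from 6.80% ± 0.752 to 30.7% ± 6.91, P2rx4 from 1.70% ± 0.120 to 8.60% ± 2.31 and Adora3 from 1.20% ± 0.114 to 5.56% ± 1.24. The sum itself was 7010 ± 848 per kb in Positive PBS and 2848 ± 409 in Positive LPS. These shares are fractions of a whole and do not move independently of each other.

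**Figure D4:**
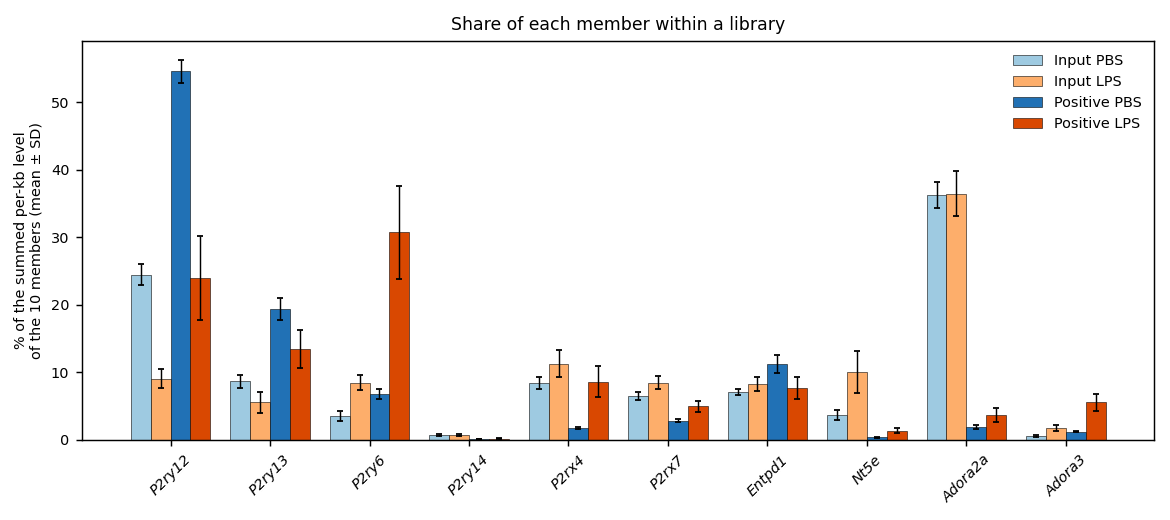
Share of each of the 10 genes in their summed per-kb level (y axis, %), as the mean of each group with error bars of 1 SD over 4 or 5 libraries. In the positive fraction P2ry12 makes up 54.6% under PBS and 23.9% under LPS, and P2ry6 6.80% and 30.7%, while Adora2a is the main member in input at 36.3% and 36.5%.

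Ratios taken within a library do not depend on how libraries are scaled. The log2 ratio of P2ry6 to P2ry12 counts was -3.07, -2.88, -2.78 and -2.58 in Positive PBS and -0.45, 0.24, 0.64, 0.90 and 1.42 in Positive LPS, so that P2ry6 exceeded P2ry12 in 4 of 5 LPS libraries and in none of the PBS libraries. The difference of means was 3.38 (exact two-sided permutation test, p = 0.0159, which is the smallest this design can give, adjusted p = 0.0286 over 8 tests). For P2rx4 to P2ry12 the difference was 3.52, for Adora2a to P2ry12 it was 2.15 and for Nt5e to Entpd1 it was 2.49, each with the same exact p = 0.0159 and adjusted p = 0.0286. In input the differences were 2.70, 1.84, 1.44 and 1.22 in the same order, each without overlap and each with the smallest exact permutation p, 0.0286 (adjusted p = 0.0286). The members of these pairs were chosen with their changes known, so the ratios describe the size and spread of the shift.

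P2ry12, P2ry13 and P2ry14 lie together on the minus strand of chromosome 3 (mm10, P2ry12 at 59216271 to 59262831 and P2ry13 at 59207894 to 59210882), within the span of Med12l, a subunit gene of the Mediator complex on the plus strand. Med12l had a mean of 737 ± 155 normalised counts in Positive PBS (SD, n = 4) and 721 ± 79.8 in Positive LPS (n = 5), and its log2 fold change was -0.04 (SE 0.14, adjusted p = 0.856). Gpr171, a further receptor gene of this cluster, was too low to be tested, with at most 17.2 normalised counts in any library. Camkk2, which follows P2rx4 on the opposite strand, fell by 0.63 on the log2 scale in both fractions (SE 0.08, adjusted p = 3.84e-06 for positive and 2.79e-05 for input).

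The relatives Gpr34 and Gpr17, further receptors of the P2Y12 group, also fell. Gpr34, a microglial gene, had a mean of 3372 ± 912 normalised counts in Positive PBS (SD, n = 4) and 303 ± 171 in Positive LPS (n = 5). Its log2 fold change was -3.47 (SE 0.33, adjusted p = 3.01e-07). Gpr17, which marks differentiating oligodendrocyte precursors, was 1.94-fold lower in the positive fraction than in input in PBS animals. Under LPS it fell in the positive fraction (log2 fold change -2.39, SE 0.24, adjusted p = 3.69e-07) and in input (-2.21, SE 0.24, adjusted p = 5.13e-06). All 4 oligodendrocyte markers were also lower in input under LPS, and their summed level ran from 51830 to 78840 normalised counts against 82030 to 130900 under PBS.

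Upstream windows are shown for the genes with the 3 largest falls and for the largest rise in the positive fraction, so that a reader can see what sequence lies before each start. RefSeq sequences (GRCm38.p6) were at hand for 8 of the 10 genes, in 13 windows. Each run below is the 250 bases before an annotated start, 5′ to 3′ on the gene's strand. Capitals mark matches, on either strand, to the PU.1 core GAGGAA, to AP-1 as TGANTCA, to GAS as TTCNNNGAA or to the NF-kB consensus. No 2 matches of different motifs overlapped in these 4 windows.
P2ry12 (chr3:59262986-59263235, minus strand): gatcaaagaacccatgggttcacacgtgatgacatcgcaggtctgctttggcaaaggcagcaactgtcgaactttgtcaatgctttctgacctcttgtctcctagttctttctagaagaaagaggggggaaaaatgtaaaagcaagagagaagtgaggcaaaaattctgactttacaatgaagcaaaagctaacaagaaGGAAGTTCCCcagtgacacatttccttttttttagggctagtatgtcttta
P2ry13 (chr3:59210883-59211132, minus strand): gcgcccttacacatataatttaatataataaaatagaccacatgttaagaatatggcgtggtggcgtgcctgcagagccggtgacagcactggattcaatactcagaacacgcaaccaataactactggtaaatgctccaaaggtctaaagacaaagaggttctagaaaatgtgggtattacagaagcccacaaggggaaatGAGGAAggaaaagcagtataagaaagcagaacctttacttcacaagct
Entpd1 (chr19:40659520-40659769, plus strand): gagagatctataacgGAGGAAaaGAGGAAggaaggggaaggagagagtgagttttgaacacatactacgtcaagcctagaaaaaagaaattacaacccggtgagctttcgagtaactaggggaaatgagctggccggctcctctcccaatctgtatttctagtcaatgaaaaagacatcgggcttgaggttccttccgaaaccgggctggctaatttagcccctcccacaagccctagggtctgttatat
P2rx4 (chr5:122707294-122707543, plus strand): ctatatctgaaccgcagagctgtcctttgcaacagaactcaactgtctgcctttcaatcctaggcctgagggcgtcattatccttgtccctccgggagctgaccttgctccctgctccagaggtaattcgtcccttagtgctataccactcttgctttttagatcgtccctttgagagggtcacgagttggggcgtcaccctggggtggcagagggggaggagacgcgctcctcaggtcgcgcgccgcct
P2ry12 held 1 match to the NF-kB consensus, 51 to 42 bases before the start, and none to the PU.1 core. P2ry13 held 1 PU.1 core 48 to 43 bases before the start. Entpd1 held 2 PU.1 cores, 235 to 230 and 227 to 222 bases before the start used here, and none before its other annotated start. P2rx4 held no match to any of the 4 motifs. Over the 13 windows, 7 held a PU.1 core, where 23.3% of 32851 windows of the same length did. Of those 7, 4 are windows of P2ry14, and 2 of these overlap and share 1 match, so the 7 windows belong to 4 of the 8 genes. AP-1 was matched in 4 windows (6.75% of all), NF-kB in 1 (5.00% of all) and GAS in none (7.02% of all). A match describes letters and not binding.

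Beyond the 10 genes, 39 further genes of nucleotide and adenosine handling were listed, of which 33 passed the filter. In the positive fraction 6 were higher under LPS and 7 lower, and their median log2 fold change was -0.07. In input 1 was higher and 4 were lower, with a median of -0.06. The shares of all genes tested that were called, given above, were 7.16% and 5.26% in input and 19.0% and 14.9% in the positive fraction. The counts in the positive fraction were near these shares. In input, 1 higher of 33 was below its share and 4 lower of 33 above, and neither difference was tested.

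Among receptors, P2ry2, which binds ATP and UTP, had 32.7 to 52.5 normalised counts in Positive PBS and 108 to 246 in Positive LPS (log2 fold change 2.11, SE 0.33, adjusted p = 7.23e-05). P2ry1, the ADP receptor of neurons and astrocytes, was lower in input (log2 fold change -0.50, SE 0.16, adjusted p = 0.0482). Among enzymes, Alpl, the alkaline phosphatase that can dephosphorylate nucleotides down to adenosine, fell from 335 to 542 normalised counts in Positive PBS to 59.0 to 84.7 in Positive LPS (log2 fold change -2.58, SE 0.17, adjusted p = 2.99e-09), and it fell in input as well (-1.63, SE 0.18, adjusted p = 5.5e-06). Its interaction term was -0.96 (SE 0.24, adjusted p = 0.0222).

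Cd38, an ectoenzyme that consumes NAD, went from 231 to 337 normalised counts in Positive PBS to 595 to 930 in Positive LPS (log2 fold change 1.41, SE 0.15, adjusted p = 6.79e-07). Cd38 was not called in input, and its interaction term was called (1.14, SE 0.21, adjusted p = 0.00231). Ada, which deaminates adenosine, was higher in the positive fraction (log2 fold change 0.75, SE 0.25, adjusted p = 0.0216). Dpp4, a surface peptidase known in humans as a binding partner of adenosine deaminase, was lower (-0.87, SE 0.20, adjusted p = 0.0025). Enpp6, a choline-phosphodiesterase of oligodendrocyte lineage cells, was lower in the positive fraction (-0.87, SE 0.27, adjusted p = 0.0157) and in input (-1.08, SE 0.25, adjusted p = 0.0067).

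Of the genes for release and transport, Slc17a9, the vesicular nucleotide transporter, was higher in the positive fraction (log2 fold change 1.32, SE 0.49, adjusted p = 0.0381) and likewise in input (2.14, SE 0.55, adjusted p = 0.0128), where its values under LPS spread from 15.2 to 160 normalised counts. Panx2, a pannexin, was lower in the positive fraction (-0.61, SE 0.15, adjusted p = 0.00397), as was the transporter gene Slc29a4 (-0.66, SE 0.14, adjusted p = 0.000924). Kcnk13, which encodes the potassium channel THIK-1, changed in opposite directions between the fractions. It went from 312 to 470 normalised counts in Positive PBS to 820 to 1122 in Positive LPS (log2 fold change 1.28, SE 0.16, adjusted p = 4.73e-06) and fell in input by 0.77 on the log2 scale (SE 0.17, adjusted p = 0.00366). The interaction term was 2.05 (SE 0.23, adjusted p = 3.26e-05).

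**Figure D5:**
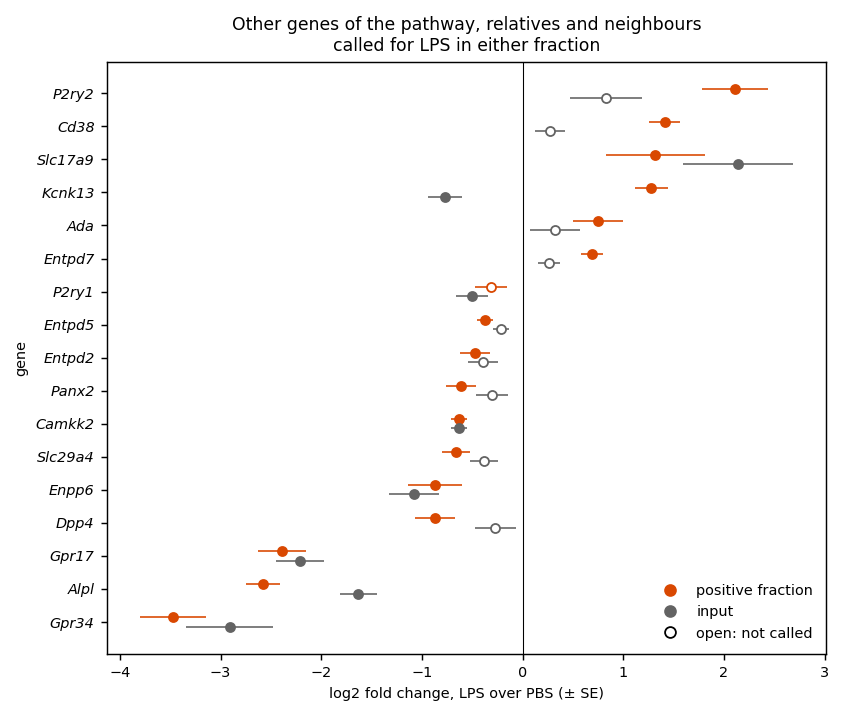
Log2 fold change of LPS over PBS (x axis, error bars of 1 SE) by fraction, for the genes of the pathway, the relatives and the neighbours that were called in either fraction. Open points were not called. Gpr34 is lowest, at -3.47 in the positive fraction, P2ry2 is highest there at 2.11, and Kcnk13 is at 1.28 in the positive fraction and -0.77 in input.

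Across the 17 libraries, the genes most like each member were found among 12612 genes that averaged 100 normalised counts or more. These correlations are across libraries that share fraction and treatment and are given as a description. P2ry12 was nearest to Gm10790, a predicted gene (Pearson r = 0.991), then to P2ry13 (0.984) and to Hexa (0.983), a lysosomal enzyme. P2ry13 was nearest to Selplg (0.992), Tgfbr1 (0.990) and Trem2 (0.989), and Entpd1 to Tgfbr1 (0.988), Lrrc3 (0.987) and Rgs10 (0.985). P2rx7 was nearest to Fgd2 (0.989), Pld4 (0.988) and Tmem119 (0.986).

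The genes that rose had other companions. P2ry6 was nearest to Card9 (0.997), Lcp1 (0.996) and Was (0.996), and Adora3 to the interferon receptor gene Ifnar2 (0.993), B2m (0.992) and Tnfrsf1b (0.992). P2rx4 was nearest to Atic (0.987), Nkiras2 (0.986) and 1600014C10Rik (0.984). The genes not enriched by TRAP stood apart, with Adora2a nearest to Ermn (0.967), and Nt5e to Secisbp2l (0.947), Dapk1 (0.946) and Slk (0.938). P2ry14 was below the minimum mean. Between members, r was 0.98 for P2ry12 with P2ry13, 0.97 for P2ry12 with Entpd1 and 0.98 for P2ry6 with Adora3, but 0.51 for P2ry12 with P2rx4.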

How the data were processed

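RNA was measured in input and in the TRAP positive fraction of 9 mice (6 female, 3 male). LPS was given to 5 (4 female, 1 male) and PBS to 4 (2 female, 2 male), so the sexes were not balanced between treatments. Groups were taken from the labels. The authors aligned directional paired-end reads to mm10 in Strand NGS and deposited estimated counts per gene. Of nonzero values, 81.1% were not whole (tolerance 0.001), and they were rounded for the count model. The authors also deposited log2 values after DESeq normalisation and centring, used here only as an alternative.

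Size factors were medians of ratios over 15766 genes (0.764 to 1.32). A gene entered the tests if all libraries of some group exceeded 20 normalised counts, which held for 14804 genes. Counts were fitted with edgeR 4.0.16 in R 4.3.3 (quasi-likelihood, 1 mean per group, 13 residual degrees of freedom), which takes the place of the study's analysis of variance because the values are counts. P-values were adjusted by Benjamini-Hochberg over all genes tested, and calls needed an adjusted p under 0.05 with a log2 fold change over 0.322 in size, the study's minimum fold. SE is the log2 fold change divided by the root of its F statistic. The fit was tested on simulated data. Input LPS 271 was left out because it was nearly empty. At these depths 3 counts, taken as the limit of detection, are between 8.54e-06% and 1.31e-05% of a library. Limits and p-values cover spread between these animals and counting error only.

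Ratios used counts + 1 and exact permutation tests (scipy 1.17.1), with adjustment over 8 tests. Input and positive libraries of 1 animal are paired by the animal number in the labels. Their deviations from group means correlated at between 0.16 and 0.519 in the 8 pairs, so the animal was tried as a block (limma 3.58.1 for LPS effects). Other alternatives were TMM, scaling on the microglia list, other filters, DESeq2 1.42.0, limma on log2 values, leaving out libraries or animals, and sex as a covariate. The animals numbered in the 500s may have been handled apart, which the labels do not say. Exon lengths came from GENCODE M21, and counting was by strand. The 10 genes were named throughout. Of other pathway genes, those called for LPS were named, up to 5 raised and 5 lowered per fraction. The 10 genes and all gene lists were chosen with earlier results of these data known. Some values that these rules would name are not reported here.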

Additional observations from a re-analysis of the deposited data

Results flagged for a closer look

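P2rx4 differed between fractions in its LPS effect. The interaction term was 1.20 on the log2 scale (edgeR, SE 0.21, adjusted p = 0.00199), with each LPS positive library above every PBS one and overlapping groups in input. Entpd1 differed the other way, with an interaction term of -1.43 (edgeR, SE 0.28, adjusted p = 0.00409). Of the 5 border macrophage markers, 1 also had a called interaction term, Lyve1, at -2.67 (edgeR, SE 0.51, adjusted p = 0.00321). The terms of the other 4 were not called (Pf4 -0.75, Mrc1 -0.62, Ms4a7 -0.50 and Cd163 -0.30). What part border macrophages have in the Entpd1 difference was not tested.

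The Positive PBS library of animal 506 stood apart from the others of its group for Adora3, with 527.5 normalised counts against 403 to 422. Of 40 groups of libraries examined in this way 1 stood apart, and chance gives about 1 in 20.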

How the results depend on the processing

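Over 144 alternative counts of called genes, 143 were within 1.5 times of the value reported. The exception was the interaction term, where 1 gene was called in place of 2 without animals 506 and 507. The counts ranged from 7 to 9 for LPS in the positive fraction and from 4 to 7 for LPS in input. They ranged from 8 to 10 for positive over input in PBS animals and from 9 to 10 in LPS animals. These counts take no account of direction and do not show whether the split was stable. Scaled on the microglia list, the split for LPS in input went from 3 higher and 3 lower to 0 and 7. That for positive over input in PBS animals went from 7 higher and 1 lower to 5 and 5. All 92 alternatives for the within-library ratios kept their direction. With the animal as a block, 4 of 50 calls changed, as given above for P2ry6 and Adora3 in input, Adora2a in the positive fraction and Nt5e in PBS animals, and no other call changed.

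Of 1440 alternative values for single genes, 1355 kept direction and call, 26 lost the call, 15 gained it and 44 changed sign. Under scaling on the microglia list, positive over input changed sign in PBS animals for P2ry14 (-3.08), P2rx4 (-2.48) and P2rx7 (-1.35), and in LPS animals for P2rx4 (-1.15), P2rx7 (-1.54) and Entpd1 (-0.83). That scaling sets values against microglial genes by construction. The same scaling gave 0.05 for P2ry14 in the difference between fractions. The other sign changes were of values near 0. For P2ry14 in PBS animals they were -0.01 with DESeq2, -0.11 with limma, -0.01 with only the libraries compared, -0.13 with all 18 libraries, -0.04 with sex as a covariate, -0.07 with the animal as a block, -0.24 with the deposited log2 values and between -0.34 and 0.22 with 1 library left out. For P2ry14 in LPS animals they were 0.01 without animals 506 and 507 and between -0.16 and 0.04 with 1 library left out. For its difference between fractions they were 0.05 with limma, 0.06 with the block, 0.07 with the deposited values and between -0.27 and 0.29 with 1 library left out. The difference for Adora3 was -0.05 with the block and between -0.19 and 0.20 with 1 library left out, and that for Nt5e was between -0.34 and 0.00. The cause was not tested. P2ry14 had between 33.2 and 108 normalised counts.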
